A study of Mus musculus with 8 samples.

Results

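The genes described here are 33 genes of glycolysis and of the fate of its end product, pyruvate, followed through H3K27ac, an acetyl mark on histone H3 found at active promoters and enhancers. They were chosen by name. A region of the deposited table belonged to one of them where that gene was its nearest gene and its centre lay at most 100 kb from the transcription start site. All 33 genes, of 18713 genes with such a region, had at least 1, giving 220 of the 112137 regions in the table. Of these, 14 in 14 genes were labelled as promoter and 206 in 32 genes were not. A gene had 1 to 21 regions, with a median of 5. Of the 220 regions 47 were centred only in the body of another protein-coding gene. The comparisons use the 216 regions that were above 0 in all 4 groups, out of 105643 such regions in the table.

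H3K27ac was profiled by CUT&Tag, in which an antibody-tethered transposase cuts and tags nearby chromatin. The 8 libraries form 4 groups of 2 from mouse embryonic stem cells: formative cells lacking MLL3 and MLL4 (DKO), formative wild type (WT) cells, naive DKO cells and naive WT cells. Naive cells represent the ground state of pluripotency, and formative cells, on the way to lineage competence, were collected once LIF2i had been withdrawn for 63 hours. MLL3 and MLL4, the products of Kmt2c and Kmt2d, are histone methyltransferases known for their work at enhancers. WT cells were of the R1 line. The sources used here name no line for the DKO cells and do not describe the deleted sequences. Replicates were grown and processed separately according to the design text. The table holds 1 value per group, read here as pooled log2(value + 1), so no difference that involves DKO cells has a replicate check. A gene or region is called higher or lower at a difference of at least 1 on the log2 scale, which is 2-fold. Formative against naive WT also has a replicated test, in the DiffBind columns of the authors' deposited table, and "rose" and "fell" are used only of regions with an adjusted p under 0.05 there.

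Glycolysis splits glucose into pyruvate. Transporters bring glucose in, a preparatory phase spends ATP to phosphorylate and cleave it, and a payoff phase returns ATP and NADH. Pyruvate is then either reduced to lactate and exported, or oxidised in mitochondria by the pyruvate dehydrogenase complex, which the Pdk kinases switch off. Pluripotent cells are known for a high glycolytic flux.

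Promoter sequence is shown for Pdk1, Slc16a3, Ldha and Pgk1, whose regions at the start carry results given further on. Each run is the 250 bases upstream of the RefSeq start on GRCm38.p6 (mm10), 5' to 3' on the plus strand. They lie at chr2:71872974-71873223 for Pdk1, chr11:120948817-120949066 for Slc16a3, chr7:46846832-46847081 for Ldha and chrX:106186850-106187099 for Pgk1. At Slc16a3 the RefSeq start lies downstream of the start from which the table measures distance. The Slc16a3 window therefore lies downstream of that start too, within the promoter region. Capitals mark ACGTG or GCGTG on either strand, the core letters of the element bound by hypoxia-inducible factors, which are known regulators of glycolytic genes.
Pdk1 promoter: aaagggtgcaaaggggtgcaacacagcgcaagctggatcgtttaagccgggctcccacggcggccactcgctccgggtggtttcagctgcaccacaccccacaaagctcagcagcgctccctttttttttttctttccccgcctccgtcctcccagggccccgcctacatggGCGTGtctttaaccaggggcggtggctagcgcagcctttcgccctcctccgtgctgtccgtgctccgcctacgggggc
Slc16a3 promoter: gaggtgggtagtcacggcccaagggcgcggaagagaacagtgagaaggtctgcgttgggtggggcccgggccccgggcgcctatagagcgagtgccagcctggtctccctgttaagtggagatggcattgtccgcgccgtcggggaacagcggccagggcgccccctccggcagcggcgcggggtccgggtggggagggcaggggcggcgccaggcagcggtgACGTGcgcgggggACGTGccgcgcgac
Ldha promoter: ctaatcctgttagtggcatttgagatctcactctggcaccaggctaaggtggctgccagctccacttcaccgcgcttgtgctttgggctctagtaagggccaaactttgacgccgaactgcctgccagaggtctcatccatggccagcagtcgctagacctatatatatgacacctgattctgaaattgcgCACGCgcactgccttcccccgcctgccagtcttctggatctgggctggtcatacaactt
Pgk1 promoter: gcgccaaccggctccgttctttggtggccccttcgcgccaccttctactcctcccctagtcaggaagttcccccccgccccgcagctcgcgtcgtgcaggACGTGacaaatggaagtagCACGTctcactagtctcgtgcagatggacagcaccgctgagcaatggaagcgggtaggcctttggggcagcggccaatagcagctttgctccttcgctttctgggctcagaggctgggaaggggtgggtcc
These letters were in the same window of 25 of the 32 genes that matched a RefSeq promoter, or 78.1%. They were in 38.6% of all 32851 RefSeq windows and in 54.5% of the 10866 windows that overlap a region of the table. The median GC content was 61.0% in the windows of the 32 genes, against 59.6% in windows that overlap a region and 52.4% in all windows. The longer CACGTG, which contains ACGTG, was in the windows of 3 of the genes, Pfkm, Pfkfb3 and Slc16a1, or 9.38%, against 8.29% of windows that overlap a region and 6.02% of all windows. A match is a run of letters and not a shown binding site.

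The centres of a pair of upstream regions are shown because H3K27ac there differed strongly between genotypes, at Pdk1 in both states and at Eno1 in formative cells. Both are 300 bases of GRCm38 (mm10) on the plus strand, with AGGTCA on either strand, a core motif of nuclear receptors, in capitals. The Pdk1 window is chr2:71867804-71868103, in a region centred 5271 bases upstream of the start, and the Eno1 window is chr4:150230870-150231169, in a region centred 6178 bases upstream.
Pdk1 upstream region: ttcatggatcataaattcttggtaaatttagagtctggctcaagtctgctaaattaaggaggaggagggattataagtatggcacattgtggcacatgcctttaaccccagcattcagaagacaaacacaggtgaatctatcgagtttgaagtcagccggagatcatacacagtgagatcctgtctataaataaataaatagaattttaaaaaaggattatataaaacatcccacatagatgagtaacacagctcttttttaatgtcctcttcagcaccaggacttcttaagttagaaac
Eno1 upstream region: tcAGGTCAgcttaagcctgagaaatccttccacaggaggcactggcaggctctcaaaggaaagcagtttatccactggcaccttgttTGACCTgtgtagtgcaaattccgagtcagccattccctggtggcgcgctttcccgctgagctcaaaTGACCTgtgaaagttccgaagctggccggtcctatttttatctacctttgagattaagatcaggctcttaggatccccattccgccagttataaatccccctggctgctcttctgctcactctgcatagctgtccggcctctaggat
The Eno1 window holds 3 matches and the Pdk1 window none of these letters. Of the 111997 regions of the table with a central window of this length, 19.4% hold AGGTCA in it.

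Some facts of the whole table bear on the values. Over all regions the median DKO over WT difference was -0.63 in formative and -0.10 in naive cells, while over promoter regions it was 0.79 and 0.58. The shares of all regions above 0, below 0 or past 2-fold between genotypes were not counted. Counts of regions within a gene given below therefore only describe that gene. The median difference of formative over naive, over all regions, was -0.07 in DKO and 0.48 in WT cells. Chromosome 6 carries 7 of the genes (Slc2a3, Hk2, Tpi1, Gapdh, Eno2, Ldhb and Pdk4), and over all its regions the median DKO over WT difference was -1.01 in formative and -0.48 in naive cells. On chromosome X, with Pgk1, Pfkfb1, Pdk3 and Pdha1, it was -0.71 in formative and -0.77 in naive cells. The part of these shifts in the values of single genes was not tested, beyond centring each chromosome. Of 77 regions of the naive markers Zfp42, Klf4, Nr5a2, Tfcp2l1 and Esrrb, 45 fell in formative WT cells and 4 rose. Of 33 regions of the 4 formative markers Pou3f1, Otx2, Dnmt3b and Lef1, 17 rose and 2 fell. Of these 4 genes 1 had only regions that fell, and the median of the Otx2 regions was -1.43 for formative over naive WT. A further formative marker, Fgf5, had no region among those compared. Of 5 fibroblast markers, used here for feeder cells, Col1a2, Thy1 and Twist2 had 7 regions, of which 2 rose and none fell. Their medians for DKO over WT ran from -3.75 to -1.19 in formative and from -1.52 to -0.05 in naive cells, and the part of such cells in the results was not tested. RNA of the deleted genes was lower in DKO than in WT cells in the authors' deposited table, at -0.91 in formative and -1.15 in naive cells for Kmt2c and at -0.84 and -0.72 for Kmt2d.

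In WT cells the transition changed H3K27ac at 66 regions of the 33 genes, in both directions. By the authors' deposited table, 27 of the 216 regions rose in formative against naive WT cells, which is 12.5% against 18.2% of all regions. Another 39 fell, which is 18.1% against 16.4% of all regions. Counted by gene, 10 genes had only regions that rose, 11 only regions that fell, 5 had both and 7 had none. These classes were not counted over all genes and depend on how many regions a gene has, so they only describe the 33 genes. Among the enzymes of fructose-2,6-bisphosphate metabolism 6 of 18 regions rose and 1 fell, and among the lactate genes 6 of 25 rose and none fell. Among the glucose transporters 1 of 16 regions rose and 6 fell, and among pyruvate dehydrogenase and its kinases 4 of 43 rose and 12 fell. The preparatory genes had 8 regions that rose and 13 that fell of 81, and the payoff genes 2 that rose and 7 that fell of 33. Differences between these groups of genes were not tested.

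The regions that changed in WT cells had smaller state differences in DKO cells. Over the 27 that rose, the median difference of formative over naive was 0.26 in DKO cells, against 2.34 in WT cells, and 4 of the 27 were at least 2-fold higher in formative DKO cells, against 4967 of the 19184 regions of the table that rose. Over the 39 that fell, it was -0.46 in DKO cells, against -1.48 in WT cells, and 9 of the 39 were at least 2-fold lower, against 5535 of the 17373 regions that fell. The WT values chose these regions, so a smaller value in DKO cells is in part built in. All regions of the table that rose or fell gave 0.31 and -0.60 in DKO cells, against 2.59 and -2.0 in WT cells. At the 27 regions the genotypes differed in opposite directions in the 2 states, with a median DKO over WT difference of -1.07 in formative and 1.12 in naive cells, against -1.31 and 0.96 over all regions that rose. At the 39 regions it was 0.83 in formative and -0.32 in naive cells, against 0.62 and -0.89 over all regions that fell. These differences share WT values with the change that chose the regions. H3K4me1, a methyl mark of enhancers, had medians for DKO over WT of -0.03 in formative and -0.31 in naive cells at the 27 regions, and of 0.31 and 0.02 at the 39, from the authors' deposited table.

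**Figure D1:**
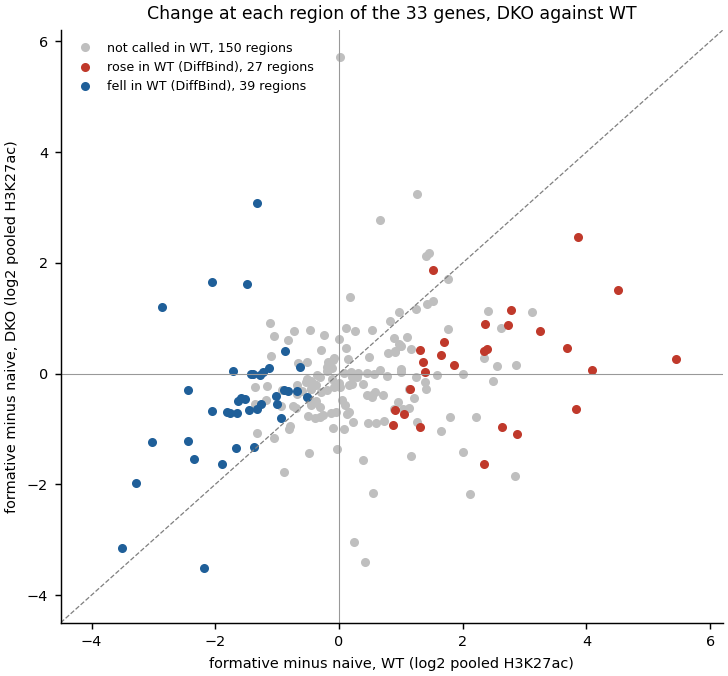
Formative over naive difference of pooled H3K27ac (log2) at the 216 regions of the 33 genes, in DKO cells on the vertical axis and WT cells on the horizontal axis, with a dashed line of equal change. The 27 regions that rose in WT (red) centre on 0.26 in DKO and 2.34 in WT cells, and the 39 that fell (blue) on -0.46 in DKO and -1.48 in WT cells.

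Summarised by gene, few genes passed 2-fold between states in DKO cells. Non-promoter regions are those without the promoter label, and some of them lie within 1 kb of a start. The median over 32 genes, each represented by the median of its non-promoter regions, was -0.21 for formative over naive DKO cells, against -0.05 over all genes. Ldhb was higher, as were 10.4% of all genes, and Hk1, Pdk4 and Pgk1 were lower, as were 11.7%. In WT cells the median was 0.22, against 0.58 over all genes, with 10 genes higher and 4 lower, where 38.5% and 13.8% of all genes were. The WT median turned to -0.26 with 5 genes higher when centred on all regions, and to -0.39 with 4 higher and 8 lower under quantile normalization. The 14 promoter regions had a median of -0.48 in DKO cells with none past 2-fold, where 8.91% of all genes were higher and 9.32% lower. In WT cells the promoters had a median of -0.45, with 2 higher (Aldoc and Slc16a3) and 3 lower (Slc2a3, Pfkfb2 and Pgk1), where 20.0% and 26.6% of all genes were.

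Between genotypes, promoter differences lay mostly above 0, as over all genes, while other regions were divided. In formative cells 6 of 14 promoters were higher in DKO (Slc2a1, Slc2a3, Pfkfb2, Pgk1, Ldha and Pdhb) and 2 were lower (Aldoc and Slc16a3), where 40.6% and 11.3% of all genes were. In naive cells 4 promoters were higher in DKO (Hk1, Pfkfb4, Ldha and Pdk4) and 1 was lower (Slc16a3), where 30.6% and 7.77% of all genes were. The promoter medians, 0.90 in formative and 0.61 in naive cells, lay close to those of all genes, 0.79 and 0.58, and centring on the promoters of the whole table left 0.12 and 0.03. At other regions 7 of 32 genes were lower in formative DKO cells (Pfkl, Pfkfb1, Pfkfb2, Pfkfb4, Ldhb, Pdk1 and Pdk2), where 40.5% of all genes were, and Pkm was higher, where 5.52% were. In naive cells 5 genes were lower in DKO (Pfkfb1, Pfkfb2, Ldhb, Pdk1 and Pdhb), where 22.0% of all genes were, and 4 were higher (Hk1, Aldoa, Eno3 and Dlat), where 12.9% were. The median of the 32 genes was -0.28 in formative and 0.42 in naive cells, against -0.73 and -0.09 over all genes. Its sign in formative cells depends on the scaling, since it was 0.35 when centred on all regions, and in naive cells it was -0.16 when centred on promoters. Centring on promoters lowers every DKO over WT value given below by 0.79 in formative and 0.58 in naive cells, and centring on all regions takes away -0.63 and -0.10 in their place.

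**Figure D2:**
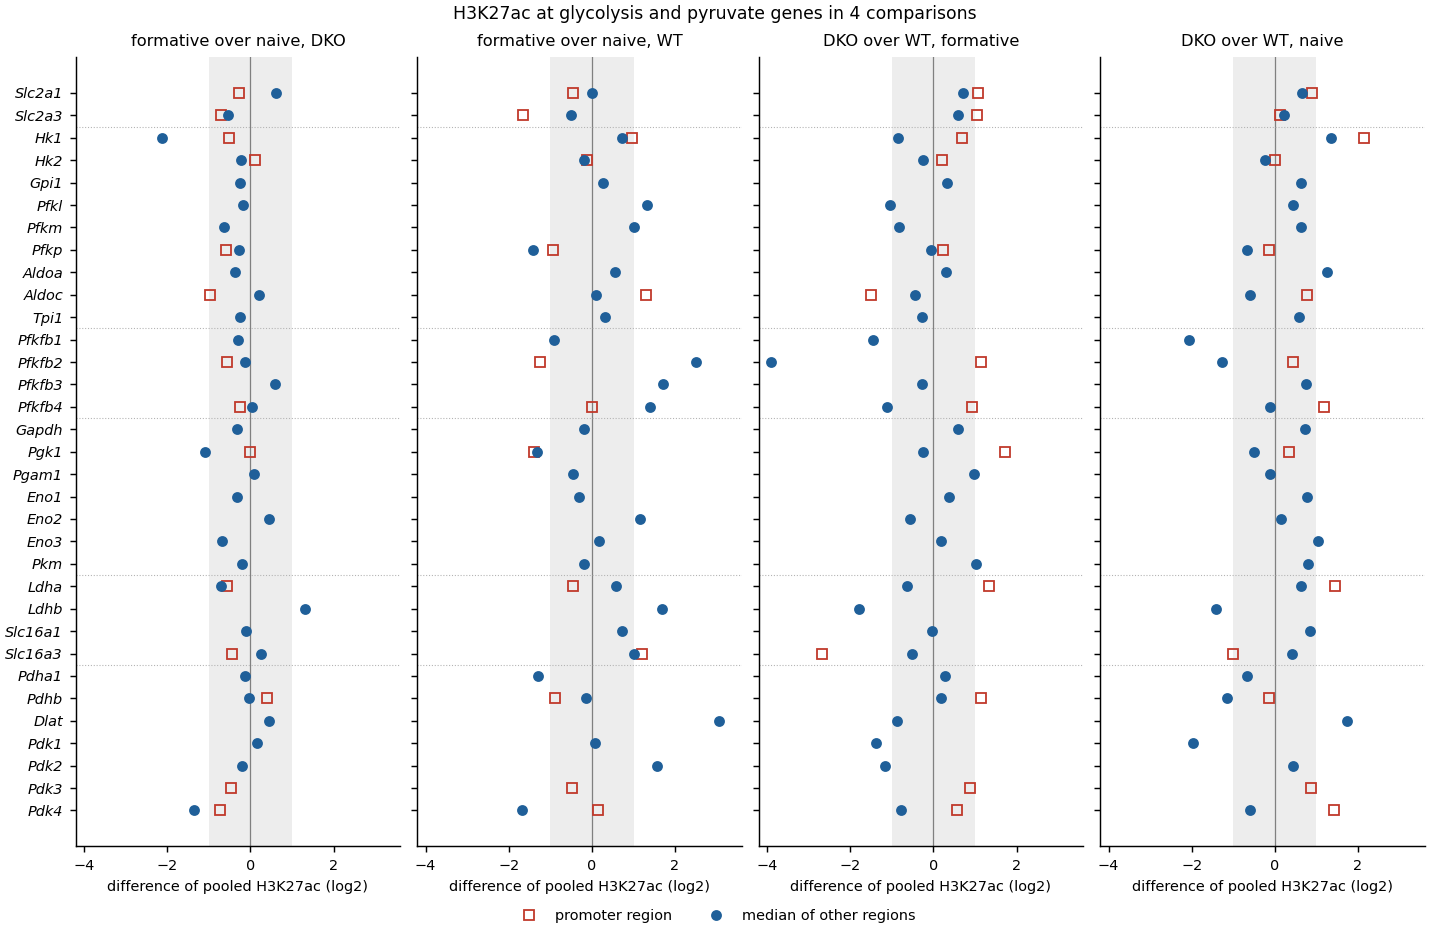
Difference of pooled H3K27ac (log2) for each of the 33 genes, grouped by role, for formative over naive DKO, formative over naive WT, DKO over WT in formative and DKO over WT in naive cells. Open squares are promoter regions, filled circles the median of a gene's other regions, and the grey band spans less than 2-fold; the Slc16a3 promoter lies left of the band in both DKO over WT panels, at -2.68 and -1.02.

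The direction at promoters was similar when starts were taken by distance and not by label. A region centred within 1 kb of the start was present for 25 of the genes, of 8597 genes in all. The 25 starts include every region of these genes labelled as promoter, so the similarity is in part built in. The added starts were not summarised alone. In formative cells 21 of the 25 were above 0 for DKO over WT, with a median of 0.89, against 75.1% of all genes and a median of 0.80. Below 0 were Aldoc, Slc16a3, Pdk1 and Pdk2. In naive cells 20 of the 25 were above 0, with a median of 0.78, against 74.2% of all genes and a median of 0.57.

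The glucose transporters Slc2a1 (GLUT1) and Slc2a3 (GLUT3) differed from each other in WT cells. The Slc2a1 promoter region stood at 8.25 in formative DKO and 7.19 in formative WT cells, and at 8.54 in naive DKO and 7.64 in naive WT cells. All 6 Slc2a1 regions were above 0 for DKO over WT in both states, the highest at 2.46 in formative cells, in the intergenic region chr4:119105410-119106268. A wide intronic region, chr4:119115324-119128428, was the 1 that fell in formative WT cells, by 0.70 on the log2 scale in the authors' deposited table (DiffBind adjusted p = 0.00127).
Slc2a3 lost H3K27ac in formative WT cells over its promoter, introns and upstream flank, with 5 of 10 regions that fell and 1 that rose. The lowest adjusted p among the 216 regions belonged to chr6:122760324-122773498, centred 24166 bases upstream. That region stood at 6.01 in formative DKO and 5.13 in formative WT cells, and at 7.23 in naive DKO and 7.58 in naive WT cells, with a fold of -2.44 in the authors' deposited table (DiffBind adjusted p = 5.71e-48). The Slc2a3 promoter stood at 8.83 in formative DKO and 7.78 in formative WT cells, and at 9.55 in naive DKO and 9.44 in naive WT cells, with a fold of -1.45 in the authors' deposited table (DiffBind adjusted p = 7.46e-06). At the promoter the genotypes lay close together in naive cells, while in formative cells DKO was higher by 1.05. RNA of Slc2a3 was higher in DKO than in WT by 1.16 in formative and 1.07 in naive cells in the authors' deposited table. For Slc2a1 the authors' deposited table gave 1.05 in formative and 0.20 in naive cells.

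Among the preparatory genes, the phosphofructokinases, which commit sugar to glycolysis, differed in WT cells at regions away from their starts. At the region nearest each start, formative over naive WT was below 0, at -0.94 for Pfkp, -1.17 for Pfkm and -0.35 for Pfkl. None of these start regions was called by DiffBind. Pfkp, the platelet isozyme, lost H3K27ac in formative WT cells at 8 of 12 regions and gained it at none. Its intronic region chr13:6634813-6641055 had the smallest adjusted p and stood at 4.58 in formative DKO and 4.44 in formative WT cells, and at 6.11 in naive DKO and 6.79 in naive WT cells, with a fold of -2.32 in the authors' deposited table (DiffBind adjusted p = 7.12e-19). The larger loss lay next to it, at chr13:6642122-6643946, which stood at 6.85 in formative DKO and 6.0 in formative WT cells, and at 8.83 in naive DKO and 9.28 in naive WT cells, with a fold of -3.22 in the authors' deposited table (DiffBind adjusted p = 5.96e-14). DKO cells also had less there in the formative than in the naive state. All 11 non-promoter regions of Pfkp were lower in naive DKO than in naive WT cells, 5 of them by at least 2-fold, with a median of -0.68, against -0.06 in formative cells. The Pfkp promoter stood at 8.82 in formative DKO and 8.59 in formative WT cells, and at 9.40 in naive DKO and 9.53 in naive WT cells. RNA of Pfkp in the authors' deposited table was -0.22 for formative over naive in DKO and -1.68 in WT cells, and 0.12 for DKO over WT in formative and -1.34 in naive cells. Naive WT cells thus had the most RNA, and they had the highest H3K27ac value at each Pfkp region other than chr13:6633606-6634557, where formative WT cells did.
Pfkm, the muscle isozyme, had 4 of 13 regions that rose and none that fell, 2 of them in introns of the neighbouring Senp1. The region chr15:98051914-98052688, in Senp1, stood at 9.14 in formative DKO and 10.21 in formative WT cells, and at 8.27 in naive DKO and 7.47 in naive WT cells, with a fold of 2.84 in the authors' deposited table (DiffBind adjusted p = 2.75e-07). Of the 13 regions 11 were below 0 for DKO over WT in formative cells and 12 above 0 in naive cells. Over all regions without the promoter label the medians were -0.69 in formative and -0.15 in naive cells. A further intronic region, chr15:98125407-98125998, was at 8.32 in formative DKO, 9.81 in formative WT and 7.81 in naive DKO cells and was listed at 0 in naive WT cells. At the start the formative order was the opposite, while the naive order was the same: the region centred 486 bases inside Pfkm stood at 9.89 in formative DKO and 8.47 in formative WT cells, and at 10.12 in naive DKO and 9.64 in naive WT cells. RNA of Pfkm changed little in the authors' deposited table, with formative over naive at 0.11 in DKO and 0.11 in WT cells.
Pfkl, the liver isozyme, had 1 of 4 regions that rose. That intronic region, chr10:77995117-77996591, stood at 6.68 in formative DKO and 8.63 in formative WT cells, and at 7.64 in naive DKO and 6.0 in naive WT cells, with a fold of 2.74 in the authors' deposited table (DiffBind adjusted p = 3.08e-08). The gene's median was -0.17 for formative over naive in DKO and 1.32 in WT cells.
The hexokinases, which trap glucose as its phosphate, also differed. The Hk1 promoter stood at 9.05 in formative DKO and 8.37 in formative WT cells, and at 9.55 in naive DKO and 7.41 in naive WT cells, and its naive difference, 2.15, was the largest of the 14 promoters. The 4 intronic regions of Hk1 all had less in the formative state of DKO cells, their median difference being -2.13 there and 0.73 in WT cells. Of these chr10:62313683-62315036 stood at 6.73 in formative DKO and 6.69 in formative WT cells, and at 10.23 in naive DKO and 8.88 in naive WT cells, and it was the 1 that fell, with a fold of -2.10 in the authors' deposited table (DiffBind adjusted p = 0.000151). Hk2, with 21 regions, had its promoter between 9.66 and 9.88 in all 4 groups. Across Hk2 3 regions fell and 1 rose, the smallest adjusted p being at chr6:82720145-82727079, with a fold of -0.94 in the authors' deposited table (DiffBind adjusted p = 6.35e-06). RNA of Hk2 was -0.35 for formative over naive in DKO and -1.09 in WT cells in the authors' deposited table.
Gpi1, the isomerase of the second step, and Tpi1, the triose isomerase, stayed within 2-fold in the medians of all 4 comparisons. Gpi1 had 1 region of 14 that fell, chr7:34231849-34236207, at 8.86 in formative DKO and 7.51 in formative WT cells, and at 9.49 in naive DKO and 8.83 in naive WT cells, with a fold of -1.28 in the authors' deposited table (DiffBind adjusted p = 3.64e-07). The Gpi1 regions centred 14661 to 25973 bases upstream lie in the neighbouring 4931406P16Rik, and they enter the gene's median. The 5 own intronic regions of Gpi1 were above 0 for DKO over WT in both states. The 4 regions of Aldoa, an aldolase, which also lie in the annotated span of Fam57b, were all higher in naive DKO than in naive WT cells, by 1.04 to 1.60. Aldoc, another aldolase, had the 1 promoter of the 14 that rose. It stood at 7.03 in formative DKO and 8.52 in formative WT cells, and at 7.99 in naive DKO and 7.21 in naive WT cells, with a fold of 1.48 in the authors' deposited table (DiffBind adjusted p = 4.08e-05).

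The Pfkfb genes encode the enzymes that make and remove fructose-2,6-bisphosphate, a potent activator of phosphofructokinase. Of 9 Pfkfb3 regions 4 rose, and of 6 Pfkfb4 regions 2 rose, with none of either falling. The Pfkfb4 intron region chr9:109007900-109008547 had the largest WT difference of the 216 regions. It stood at 8.85 in formative DKO and 9.83 in formative WT cells, and at 8.59 in naive DKO and 4.39 in naive WT cells, with a fold of 5.66 in the authors' deposited table (DiffBind adjusted p = 2.54e-06). Naive WT cells were the low group there, and the DKO values of both states lay within 0.26 of each other. The Pfkfb4 promoter stood at 8.64 in formative DKO and 7.72 in formative WT cells, and at 8.88 in naive DKO and 7.71 in naive WT cells. RNA of Pfkfb4 was 0.39 for formative over naive in DKO and -1.51 in WT cells, and 1.23 for DKO over WT in formative and -0.67 in naive cells, in the authors' deposited table, so in WT cells RNA was lower where regions rose.
At Pfkfb3, chr2:11481870-11484199 stood at 7.26 in formative DKO and 7.74 in formative WT cells, and at 6.69 in naive DKO and 6.04 in naive WT cells, with a fold of 1.91 in the authors' deposited table (DiffBind adjusted p = 0.00022). The median of its 9 regions was 0.60 for formative over naive in DKO and 1.70 in WT cells. Pfkfb2 had opposite values at its promoter and its intron. The promoter stood at 8.42 in formative DKO and 7.28 in formative WT cells, and at 8.97 in naive DKO and 8.54 in naive WT cells, with a fold of -1.18 in the authors' deposited table (DiffBind adjusted p = 0.0126). The intronic region, chr1:130699956-130700885, which lies also within Gm29427, stood at 4.38 in formative DKO and 8.28 in formative WT cells, and at 4.52 in naive DKO and 5.79 in naive WT cells, and its formative difference, -3.90, was the largest of the 32 gene values. Pfkfb1 had a single intronic region, on chromosome X, at 6.10 in formative DKO and 7.55 in formative WT cells, and at 6.39 in naive DKO and 8.47 in naive WT cells.

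The payoff genes had positive medians for DKO over WT at regions not labelled as promoter, 0.39 in formative and 0.73 in naive cells over 7 genes. These regions include those at the starts of Eno1 and Pkm. The formative median lies under the 0.79 of all promoters and turns negative when centred on them. Pkm, which encodes the pyruvate kinase of the last step, was marked from end to end. All 13 Pkm regions were above 0 for DKO over WT in naive cells, and 10 of 13 in formative cells, 7 of them by at least 2-fold, while 2 of the 3 below 0 were at least 2-fold lower, with medians of 1.02 in formative and 0.79 in naive cells. The formative median of Pkm was 0.24 when centred on all promoters and 0.88 when starts were taken by distance. The region at its start, chr9:59655637-59658843, stood at 8.40 in formative DKO and 7.22 in formative WT cells, and at 8.58 in naive DKO and 7.62 in naive WT cells. The 1 region that fell in WT cells, chr9:59653097-59654167, stood at 9.63 in formative DKO and 7.79 in formative WT cells, and at 10.10 in naive DKO and 9.31 in naive WT cells, with a fold of -1.55 in the authors' deposited table (DiffBind adjusted p = 0.0434). RNA of Pkm was -0.20 in formative and -0.55 in naive cells for DKO over WT in the authors' deposited table, with H3K27ac and RNA on opposite sides of 0.
Eno1, the main enolase, divided at its start. The 3 regions centred 4122 to 12955 bases upstream were all lower in formative DKO than in formative WT cells, with differences of -2.68, -2.30 and -2.07. The region shown above, within chr4:150229541-150232497, stood at 4.78 in formative DKO and 7.45 in formative WT cells, and at 6.41 in naive DKO and 5.11 in naive WT cells, with a fold of 2.35 in the authors' deposited table (DiffBind adjusted p = 7.49e-07). Formative WT cells were the high group at these regions. The 6 regions from the start onwards were all above 0 for DKO over WT in formative cells, up to 1.24, and 3 of them fell in WT cells. RNA of Eno1 was -0.35 in formative and -0.30 in naive cells for DKO over WT in the authors' deposited table.
Pgk1, a kinase of the payoff phase, had its promoter, chrX:106185415-106187650, at 8.0 in formative DKO and 6.27 in formative WT cells, and at 8.01 in naive DKO and 7.67 in naive WT cells. Formative WT cells were the low group, and the promoter fell in WT cells with a fold of -1.55 in the authors' deposited table (DiffBind adjusted p = 0.0094). RNA of Pgk1 was 1.66 for formative over naive in DKO and 0.12 in WT cells, and 0.23 for DKO over WT in formative and -1.31 in naive cells, in the authors' deposited table. Gapdh had 2 wide regions, centred in the neighbours Ncapd2 and Iffo1, both above 0 for DKO over WT in both states, at 0.37 to 0.83, and the second fell in WT cells. Pgam1, a mutase, had 1 of 5 regions that fell, and its medians were 0.97 in formative and -0.12 in naive cells for DKO over WT. The tissue-restricted enolases Eno2 and Eno3 had 1 region each among those compared, none called by DiffBind. The values were 1.16 for formative over naive WT at Eno2 and 1.04 for naive DKO over WT at Eno3. A further Eno2 region, chr6:124772507-124773180, was at 7.80 in formative DKO, 8.71 in formative WT and 8.59 in naive WT cells. It was listed at 0 in naive DKO cells.

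**Figure D3:**
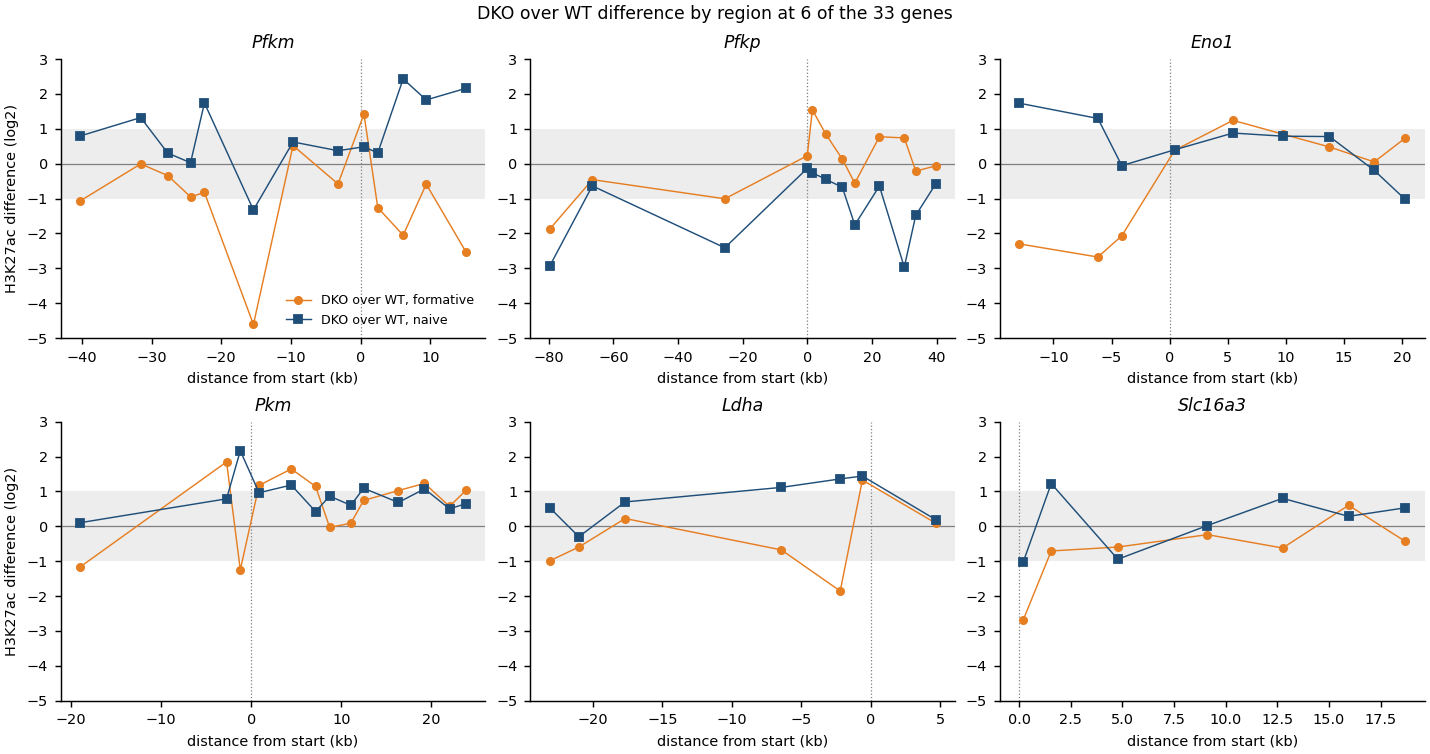
DKO over WT difference of pooled H3K27ac (log2) at each region of 6 genes, in formative cells (circles) and naive cells (squares), against the distance from the start in kb, with the grey band spanning less than 2-fold. At Eno1 the 3 upstream circles lie between -2.68 and -2.07 and the circles from the start onwards lie above 0, while at Slc16a3 the lowest circle, -2.68, is at the promoter.

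The lactate genes had 6 regions that rose and none that fell among 25. Slc16a3 (MCT4), a lactate exporter, had 3 of 7 that rose. The smallest adjusted p was in its intron, chr11:120951572-120956115, at 5.87 in formative DKO and 6.47 in formative WT cells, and at 4.0 in naive DKO and 4.94 in naive WT cells, with a fold of 1.53 in the authors' deposited table (DiffBind adjusted p = 0.00332). The Slc16a3 promoter, chr11:120948084-120949289, stood at 5.53 in formative DKO and 8.21 in formative WT cells, and at 5.98 in naive DKO and 6.99 in naive WT cells. It was the 1 promoter of the 14 that was lower in DKO cells by 2-fold in both states. Its naive difference, -1.02, lay just past 2-fold. No promoter was lower in naive cells when centred on all regions or under quantile normalization. RNA of Slc16a3 was higher in formative than in naive cells in both genotypes, by 2.13 in DKO and 2.62 in WT cells, in the authors' deposited table. For DKO over WT the authors' deposited table gave -0.82 in formative and -0.33 in naive cells, under 2-fold.
Ldha, the lactate dehydrogenase subunit that favours reduction of pyruvate, had its promoter at 7.98 in formative DKO and 6.65 in formative WT cells, and at 8.54 in naive DKO and 7.10 in naive WT cells. DKO was the higher there in both states, by 1 pooled value per group, and under 2-fold when centred on promoters. Among all genes with a region within 1 kb of the start, DKO was higher at 75.1% in formative and 74.2% in naive cells. RNA of Ldha was -0.39 in formative and -0.40 in naive cells for DKO over WT in the authors' deposited table. Upstream the order in formative cells was the opposite. The region centred 2197 bases upstream, chr7:46843194-46844021, stood at 7.19 in formative DKO and 9.04 in formative WT cells, and at 6.72 in naive DKO and 5.36 in naive WT cells, with a fold of 3.65 in the authors' deposited table (DiffBind adjusted p = 0.00787). The region centred 6435 bases upstream rose as well, by 0.93 in the authors' deposited table (DiffBind adjusted p = 0.0157), and was at -0.68 for DKO over WT in formative cells.
Ldhb, the subunit that favours oxidation of lactate, was the 1 gene of the 32 whose median was 2-fold higher in formative than in naive cells of both genotypes, at 1.30 in DKO and 1.67 in WT cells. Within 20 kb of the start formative over naive was 0.90 in DKO cells, under 2-fold, and 1.77 in WT cells, and DKO over WT in naive cells was -0.34, also under 2-fold. Its 4 regions were all at least 2-fold lower in formative DKO than in formative WT cells, with a median of -1.79, and the naive median was -1.42. The gene lies on chromosome 6, and centring on that chromosome left -0.77 in formative and -0.94 in naive cells. The intronic region chr6:142493322-142495494 stood at 5.87 in formative DKO and 7.66 in formative WT cells, and at 4.97 in naive DKO and 5.31 in naive WT cells, with a fold of 2.54 in the authors' deposited table (DiffBind adjusted p = 4.61e-06). Slc16a1 (MCT1), which carries lactate and pyruvate, had no region that rose or fell among 7, and DKO over WT medians of -0.05 in formative and 0.83 in naive cells. A further Slc16a1 region was listed at 0 in naive DKO cells. RNA of Slc16a1 was 0.31 in formative and 1.19 in naive cells for DKO over WT in the authors' deposited table.

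Pdk1, the gene of a kinase that restrains pyruvate dehydrogenase and a known target of hypoxia-inducible factors, had less H3K27ac in DKO cells at every region. All 17 Pdk1 regions were below 0 for DKO over WT in both states. In formative cells 11 of the 17 were lower by at least 2-fold, with a median of -1.38, and in naive cells 15 were, with a median of -1.98. At non-promoter regions 40.5% of all genes had a median lower by 2-fold in formative cells, and 22.0% in naive cells. The naive median of Pdk1 was the lowest among the genes with more than 1 region, and stayed between -4.02 and -1.69 under all 8 alternatives. The formative median was -0.75 when centred on all regions and -0.77 when centred per chromosome, under 2-fold. The region at the start, chr2:71872687-71874262, stood at 7.69 in formative DKO and 8.62 in formative WT cells, and at 6.08 in naive DKO and 10.10 in naive WT cells. The upstream region shown above, within chr2:71866599-71869308, stood at 4.62 in formative DKO and 6.68 in formative WT cells, and at 4.92 in naive DKO and 9.11 in naive WT cells. Naive WT cells were the high group at both. In WT cells 5 Pdk1 regions fell and 1 rose. In the authors' deposited table the upstream region had a fold of -2.38 (DiffBind adjusted p = 1.63e-16) and the start region one of -1.45 (DiffBind adjusted p = 0.000251). In DKO cells the start region was instead higher in formative than in naive cells, by 1.61.
Low DKO values around Pdk1 were not limited to the gene body. Of the 17 regions 7 are centred in Pdk1, 7 only in the neighbouring Itga6 and 3 in neither, with naive medians of -2.20, -1.38 and -4.19. The 9 regions whose nearest gene is Itga6 had a naive median of 0.50, and the 12 of Platr26, further on, had -1.63, with 8 lower by 2-fold. All 46 regions of other genes within 500 kb had medians of -0.49 in formative and -0.18 in naive cells. RNA of Pdk1 for DKO over WT was 0.14 in formative and -1.24 in naive cells in the authors' deposited table. Across the transition the authors' deposited table gave 2.25 in DKO and 0.86 in WT cells, the DKO value being the highest of the 24 genes with an RNA fold. H3K4me1 was at 0.43 in formative and 1.06 in naive cells for DKO over WT at the Pdk1 start, by the authors' deposited table. At the upstream region the authors' deposited table gave -0.72 in formative and -0.71 in naive cells.

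**Figure D4:**
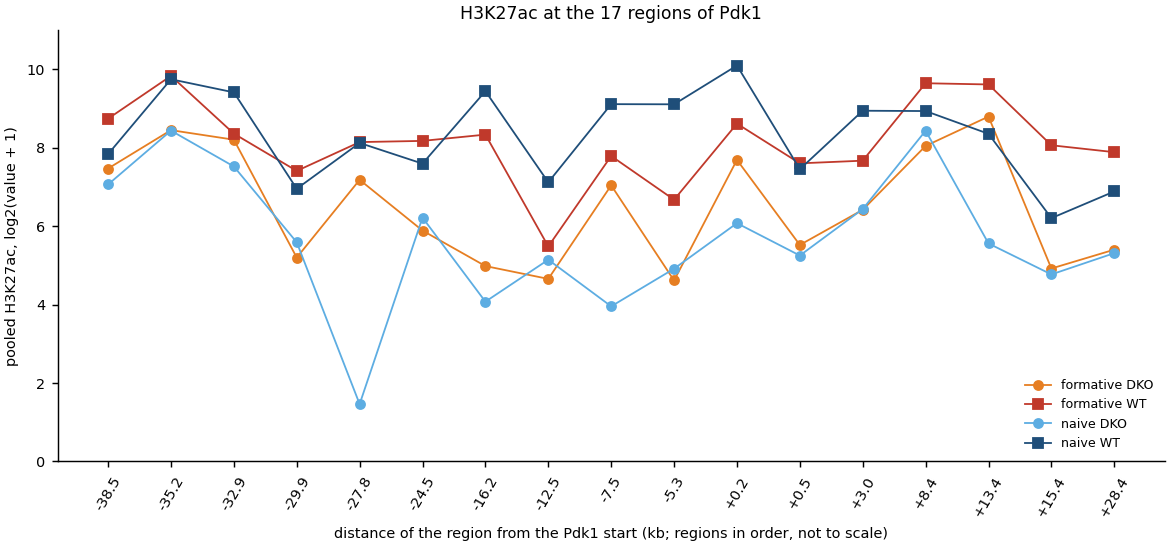
Pooled H3K27ac, log2(value + 1), at the 17 regions of Pdk1 in order along the chromosome, labelled with their distance from the start in kb, in formative DKO, formative WT, naive DKO and naive WT cells. DKO lies below WT of the same state at all 17 regions, and at the start the naive values are 6.08 in DKO and 10.10 in WT cells.

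The other kinases and the complex varied by gene. The 4 regions of Pdk2 were all below 0 for DKO over WT in formative cells, with a median of -1.15, against 0.42 in naive cells. Over all regions without the promoter label the formative median was -0.69. In WT cells 1 of the Pdk2 regions rose. Pdk3 had only a promoter region, at 8.94 in formative DKO and 8.05 in formative WT cells, and at 9.40 in naive DKO and 8.53 in naive WT cells. Pdk4, whose product is known to be induced by fasting, had 2 of 4 regions that fell and its promoter at 8.92 in formative DKO and 8.37 in formative WT cells, and at 9.66 in naive DKO and 8.23 in naive WT cells. The region centred 80972 bases upstream, chr6:5576658-5577842, stood at 5.27 in formative DKO and 5.34 in formative WT cells, and at 8.43 in naive DKO and 8.84 in naive WT cells, with a fold of -3.40 in the authors' deposited table (DiffBind adjusted p = 4.38e-08). There the pooled state difference was similar in both genotypes, -3.16 in DKO and -3.50 in WT cells.
Pdha1, Pdhb and Dlat encode parts of the complex. Pdha1, on chromosome X, had 3 of 6 regions that fell and 1 that rose. Its region chrX:160180393-160181653, centred 42593 bases upstream, stood at 7.74 in formative DKO and 6.49 in formative WT cells, and at 6.54 in naive DKO and 9.36 in naive WT cells, with a fold of -2.80 in the authors' deposited table (DiffBind adjusted p = 2.83e-09). The states were in opposite order in the genotypes there. The region at the Pdha1 start stood at 8.18 in formative DKO and 7.25 in formative WT cells, and at 8.88 in naive DKO and 9.06 in naive WT cells, with a fold of -1.67 in the authors' deposited table (DiffBind adjusted p = 2.45e-07). Pdhb had its promoter at 10.11 in formative DKO and 8.95 in formative WT cells, and at 9.70 in naive DKO and 9.83 in naive WT cells, with a fold of -0.84 in the authors' deposited table (DiffBind adjusted p = 0.0268). Its 8 other regions, 5 of them centred in the neighbouring Pxk, had DKO over WT medians of 0.17 in formative and -1.15 in naive cells. A further Pdhb region was listed at 0 in naive WT cells and at 7.78 in formative DKO, 9.59 in formative WT and 7.78 in naive DKO cells. Dlat had 2 regions, with medians of 0.46 for formative over naive in DKO and 3.05 in WT cells, and the WT value was the highest of the 32 genes. Its intronic region chr9:50639295-50640303 stood at 7.95 in formative DKO and 8.72 in formative WT cells, and at 7.18 in naive DKO and 5.46 in naive WT cells, with a fold of 2.88 in the authors' deposited table (DiffBind adjusted p = 0.00031).

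RNA folds were listed for 24 of the 33 genes, from libraries outside these 8, and come without an error. Hk1, Pfkl, Pfkfb2, Aldoa, Aldoc, Eno2, Eno3, Ldhb and Pdk4 had none. For formative over naive DKO, the authors' deposited table had 4 genes at least 2-fold higher (Slc2a1, Pgk1, Pdk1 and Slc16a3) and none lower, where 17.7% and 5.17% of the 9691 genes with a fold were. For formative over naive WT, it had 1 higher (Slc16a3) and 3 lower (Hk2, Pfkp and Pfkfb4) in the authors' deposited table, where 16.8% and 9.69% were. DKO over WT in formative cells was higher for 3 genes (Slc2a1, Slc2a3 and Pfkfb4) and lower for none in the authors' deposited table, where 5.77% and 5.01% were. In naive cells DKO over WT was higher for 2 (Slc2a3 and Slc16a1) and lower for 3 (Pfkp, Pgk1 and Pdk1) in the authors' deposited table, where 8.39% and 11.2% were. Of the fibroblast markers, Col1a2 was at 3.20 for formative over naive in DKO and 2.58 in WT cells, and at 2.01 for DKO over WT in formative and 1.39 in naive cells, in the authors' deposited table. Thy1 was at -0.68 for formative over naive in DKO and 1.55 in WT cells, and at -2.82 for DKO over WT in formative and -0.59 in naive cells, in the authors' deposited table, and their part in the RNA folds was not tested. Each group enters 2 of these comparisons, so they share samples. The median fold of the 24 genes was 0.30 for formative over naive DKO, 0.13 for WT, 0.19 for DKO over WT in formative and -0.25 in naive cells, from the authors' deposited table.
RNA folds were also given for genotypes named CKO and dCD, which the sources used here do not spell out. Against WT in naive cells, none of the 24 genes passed 2-fold in CKO or dCD in the authors' deposited table, where 8.53% and 13.2% of genes did. In formative cells none passed in CKO and 2 in dCD, Slc2a1 and Slc2a3, both higher, by the authors' deposited table, where 8.34% and 8.27% did. Over the transition 5 genes passed in CKO and 5 in dCD in the authors' deposited table, where 25.2% and 23.4% did. Pdk1 RNA against WT in naive cells was 0.02 in CKO and 0.24 in dCD by the authors' deposited table. Gapdh, Pgk1, Ldha, Pkm and Eno1 have near-identical pseudogene copies, and how shared reads were counted is not stated, so their folds are uncertain.

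**Figure D5:**
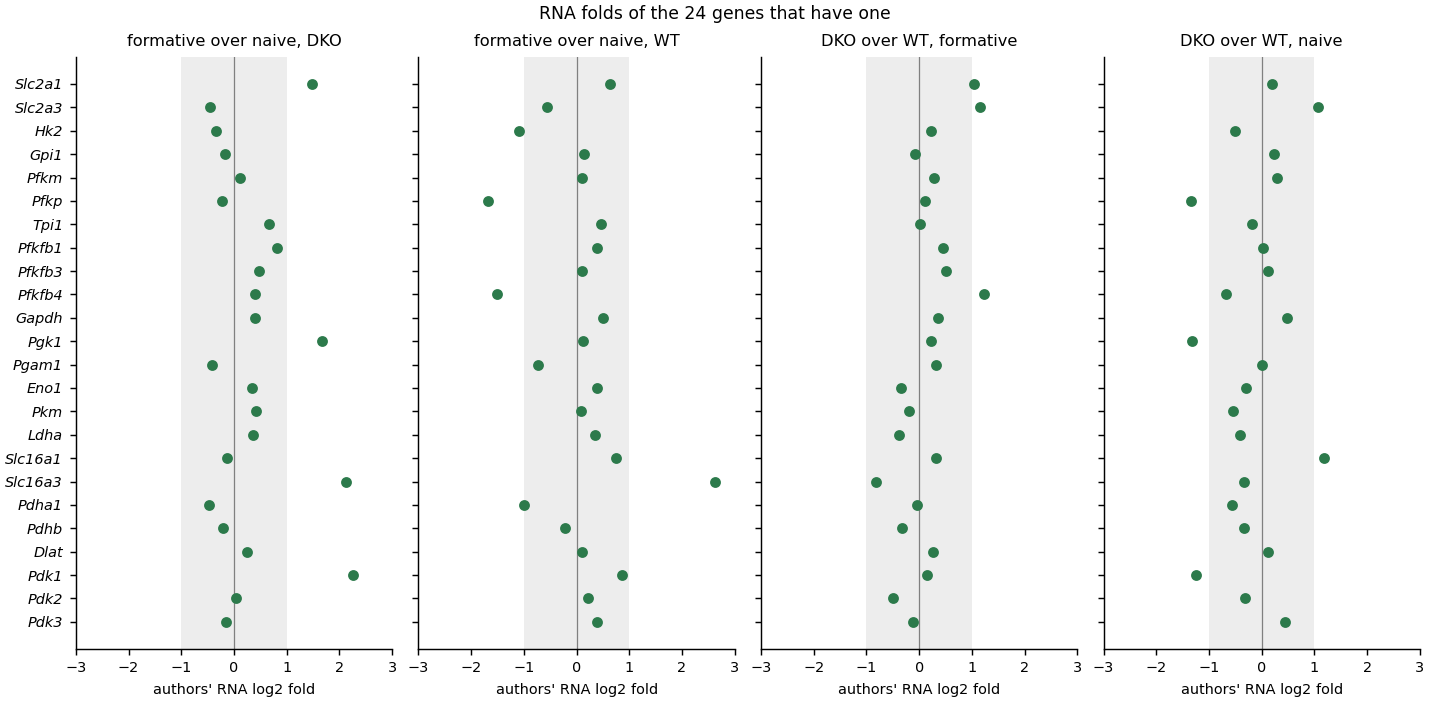
RNA log2 folds of the authors for the 24 genes that have one, for formative over naive DKO, formative over naive WT, DKO over WT in formative and DKO over WT in naive cells, with the grey band spanning less than 2-fold. Slc16a3 is at 2.13 in DKO and 2.62 in WT cells for the transition, and Pfkp, Pgk1 and Pdk1 lie left of the band for DKO over WT in naive cells.

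Related pathways give the setting. Of 28 further glycolysis and pyruvate genes 26 had 81 regions in all, of which 19 rose and 13 fell in WT cells by the authors' deposited table. These are 23.5% and 16.0%, where 18.2% and 16.4% of all regions rose and fell. Pentose phosphate genes had 6 that rose and 6 that fell of 46, or 13.0% each. Citrate cycle genes had 16 and 13 of 98, or 16.3% and 13.3%. Regulators of the hypoxia pathway had 8 and 6 of 52, or 15.4% and 11.5%, by the authors' deposited table. For DKO over WT at non-promoter regions, the further glycolysis genes had medians of -1.04 in formative and 0.06 in naive cells, and the hypoxia regulators -0.76 and -0.48. The citrate cycle genes had -0.17 in formative and 0.34 in naive cells, and the pentose phosphate genes -0.36 and 0.37. The 14 citrate cycle genes with such regions were all above 0 in naive cells, between 0.04 and 1.04, where the median over all genes was -0.09. The share of all genes above 0 was not counted. Their naive median lies under the 0.58 of all promoters and turns negative when centred on them. Among the further genes the largest gene value was at Pklr, a pyruvate kinase gene with 1 non-promoter region, where formative over naive was 0.22 in DKO and 6.18 in WT cells. At Hk3, a hexokinase gene with 1 such region, DKO over WT was 0.19 in formative and -6.10 in naive cells. At Fbp1, a gene of gluconeogenesis with 2 such regions, formative over naive was 1.56 in DKO and 3.55 in WT cells.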

How the data were processed

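H3K27ac CUT&Tag was measured in 8 libraries, 4 groups of 2, and deposited as 1 table of regions with 47 columns. Per the file headers, the authors deposited 1 log2 value per group and region, log2(value + 1), pooled over both replicates, together with log2 folds of H3K27ac, H3K4me1 and RNA. The authors also deposited DiffBind concentrations, folds, p-values and adjusted p-values (FDR) for formative against naive WT. Trim Galore, Bowtie2, SEACR, DiffBind, deepTools and the build mm10 are named per the submitters' processing notes; no source used here gives versions or roles. The 12 columns of per-group values of other assays were not used. Depth is unknown, so no interval or floor is given. Pooled levels fall with region width, so only differences within a region were compared.

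Differences were taken per region, then the median per gene, promoter (by the file's label) and other regions apart, with Python 3.11.15, numpy 2.4.6 and pandas 2.3.3 (figures with matplotlib 3.10.9). Regions at 0 in any group were left out and are given singly. A difference of at least 1 (log2) was called, with no test, and DiffBind adjusted p under 0.05 over all regions was the test for WT. The median per gene and the 2-fold call were tested on simulated data with less spread within a gene than in these data. No other step was tested in that way. Genes were named where a median or an RNA fold passed 2-fold, single regions by the smallest DiffBind adjusted p of a gene and its promoter; other single regions were chosen after their values were seen. The members and lists were chosen with earlier results of these data known. Alternatives were 3 scalings (all regions, promoters, quantile), 20 kb, the strongest region per gene, no filter on 0 and stricter DiffBind thresholds; centring per chromosome and starts within 1 kb were added after seeing the data.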

Additional observations from a re-analysis of the deposited data

How the results depend on the processing

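Pooled medians and counts depended mainly on the scaling between groups, since the whole-table shift differs between promoters and other regions. Centred on all regions, formative over naive WT gave a promoter median of -0.93 with 0 genes higher and 5 lower, and a median of -0.26 at other regions with 5 higher. The same centring gave 0 promoters lower for DKO over WT in naive cells. In formative cells it gave a promoter median of 1.53 with 10 higher and 1 lower, and 0.35 at other regions with 6 higher and 2 lower. Centred on promoters, formative over naive WT gave medians of -0.14 at promoters and 0.53 at other regions. DKO over WT in naive cells then gave a promoter median of 0.028 with 1 higher, and -0.16 at other regions with 1 higher and 10 lower. In formative cells it gave a promoter median of 0.12 with 0 higher, and -1.06 at other regions with 0 higher and 19 lower. Quantile normalization gave, for formative over naive WT, a promoter median of -1.0 with 0 higher and 7 lower, and -0.39 at other regions with 4 higher and 8 lower. It gave 0 promoters lower for DKO over WT in naive cells, and in formative cells a promoter median of 1.46 with 10 higher and 1 lower and 0.49 at other regions with 10 higher and 3 lower. Centring per chromosome, chosen after seeing the data, gave for formative over naive WT -0.73 at promoters with 0 higher, and -0.22 at other regions with 5 higher. For DKO over WT in formative cells it gave 1.57 at promoters with 11 higher and 1 lower, and 0.44 at other regions with 5 higher and 1 lower.

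Regions within 20 kb gave 0 genes higher for formative over naive DKO, 3 lower for DKO over WT in naive cells and 2 higher in formative cells, all at other regions. The strongest region per gene gave a median of -0.44 with 6 higher and 9 lower for formative over naive WT at other regions, 2 higher for DKO, and for DKO over WT in formative cells 0.13 with 6 higher. It turned the sign of the formative over naive WT value at Pfkl (-0.35), Pfkm (-1.17) and Slc16a3 (-0.20) and of DKO over WT in formative cells at Pfkl (0.57); in these the strongest region lies near the start or, at Slc16a3, downstream. With no filter on 0, 2 genes were higher for formative over naive DKO. Taking as promoter the median of all regions of a gene within 1 kb of its start, also chosen after seeing the data, gave 5 promoters lower for formative over naive WT, 9 higher and 2 lower for DKO over WT in naive cells, and 10 higher in formative cells, with 0 other medians higher. At a DiffBind adjusted p under 0.01, 17 regions rose. Of 422 values of the 53 called gene medians under alternatives, 339 kept their call, 79 kept their sign under 2-fold and 4 changed sign. No paired analysis was possible because each group is deposited as 1 pooled column, and leaving out a replicate could not be run for the same reason. Differences that involve DKO cells therefore have no replicate check, and depth is unknown.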
